A study of Drosophila melanogaster with 12 samples.

Results

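The sites described here are weaker PSC binding sites of control cells at which a PSC peak was also called in mitotic cells. They were chosen by 2 measured values, the control score and the presence of a mitotic peak. All 4830 peaks of PSC control replicate 1 were ranked by the score in the deposited list, the 483 peaks with the highest scores (the strongest 10%) were set aside, and of the remaining 4347 peaks those that overlapped a peak of PSC mitotic replicate 1 by at least 1 bp were taken. This gave 339 sites, which is 7.80% of the 4347 weaker peaks (95% interval 7.02 to 8.64%). Over the whole control list 11.6% of the peaks overlapped a mitotic peak, and past the strongest 10% the share was 7.8%. These shares were set by the rule and are a description. A control peak with a mitotic overlap is called kept and one without is called lost, so the 339 weaker kept sites stand beside 4008 weaker lost peaks, 220 strongest kept peaks and 263 strongest lost peaks.

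PSC (Posterior Sex Combs) is a subunit of the Polycomb repressive complex PRC1, and PH (Polyhomeotic) is another subunit of the same complex. Polycomb Group (PcG) proteins keep developmental genes silent through many cell divisions, and in Drosophila they are brought to chromatin at Polycomb response elements. Chromosomes condense in mitosis and many chromatin proteins are then released, so sites where a PcG protein stays are of interest as places that could carry the silent state to daughter cells.

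ChIP-SEQ of PSC was done on crosslinked S2 cells, a Drosophila line derived from embryos, and ChIP-SEQ of PH on an S2 line with biotin-tagged PH under a metallothionein promoter. Mitotic cells had received colchicine, which stops microtubule assembly, at 350 ng/ml (880 nM) for 15 h and were sorted by FACS with an antibody to H3S10p, a histone mark of mitotic chromosomes. Control cells were growing asynchronously, had received no colchicine and were sorted with an antibody to H3. Colchicine, the sorting antibody and the cell cycle state therefore cannot be told apart as sources of a difference. The paper allows for a small share of non-mitotic cells among the sorted mitotic cells. It holds them an unlikely source of mitotic sites, which was not tested for the sites here. The paper did not detect, by qPCR in unsorted cells, the tested sites outside response elements that both sorted populations held. Another study had found some of them in unsorted cells. The paper proposes that sorting and its antibodies aid detection, which was not tested for the sites here. PSC was measured in 2 samples of each condition and PH in 1 sample of each.

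The 6 peak lists differed in length and in the score at which they ended. PSC control replicates 1 and 2 held 4830 and 3276 peaks, PSC mitotic replicates 1 and 2 held 578 and 60, control PH held 4629 and mitotic PH held 149. The lists contain peaks and not reads, so the depth of each sample is not known from them. Absence of a site from a list means that nothing passed the threshold there, and does not show that PSC or PH was gone. The score, a value from the peak caller, was taken to be the log10 p-value multiplied by -10, and is compared only within a list. With 2 mitotic and 2 control PSC samples the smallest two-sided p that an exact permutation test allows is 0.3333, so no test over samples was made. Intervals in the text are exact binomial (Clopper-Pearson) intervals of shares and order-statistic intervals of medians, at 95%, and a count of 0 is given the limit that 3 counts of the total would set. They cover counting error among peaks and not the variation between cultures. Genes and DNA sequence at the sites were not analysed here, and sites are named by their position in the dm3 build.

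The weaker kept sites came mostly from the upper part of what remained after the strongest 10% were set aside. With the control list divided into 10 score deciles, 151 of the 483 peaks of decile 2 were kept (31.3%), 81 of decile 3 (16.8%), 45 of decile 4 (9.32%) and 22 of decile 5 (4.55%). Deciles 2 to 5 together held 299 of the 339 sites, and the 5 lowest deciles held the other 40. Control scores of the sites ran from 187.41 to 2039.13 with a median of 1343.88, and control ranks from 484 to 4625 with a median of 1047. The score fell smoothly across the limit that the rule set. The last 2 kept peaks inside the strongest 10% were those on 2L from 16824280 to 16828018 (rank 479, score 2046.97) and on X from 17425251 to 17427114 (rank 483, score 2040.88). The first 2 kept sites past it were those on 3R from 2948246 to 2951045 (rank 484, score 2039.13) and on 3L from 14777356 to 14780500 (rank 489, score 2025.74). In mitotic replicate 1 these 4 peaks scored 53.02, 258.6, 73.34 and 116.24, in the same order, so the pair just inside the limit enclosed the pair just outside.

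In mitotic cells the weaker kept sites spread over nearly the whole of the mitotic list. Their 339 mitotic peaks were 58.7% of the 578 peaks of mitotic replicate 1. Mitotic ranks ran from 2 to 578 with a median of 339, and mitotic scores from 50, where the list ended, to 1789.6, with a median of 96.77 (88.2 to 107). The score was 100 or more at 162 sites and under 60 at 58 sites, and 24 sites ranked among the strongest 10% of the mitotic list. Control rank was only weakly related to mitotic rank among these sites. The median mitotic score was 107.16 in control decile 2, 97.54 in decile 3, 86.97 in decile 4 and 76.8 in decile 5. Spearman's rho of the control and mitotic scores was 0.20 over the 339 sites, and 0.118 over the 220 strongest kept peaks. These are descriptions across peaks of the same 2 libraries, and the choice of the sites cut the range of both scores. In control replicate 1, 156 peaks of the strongest 10% (ranks 29 to 184) were tied at a score of 3100. The value for the strongest kept peaks therefore includes tied scores.

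**Figure D1:**
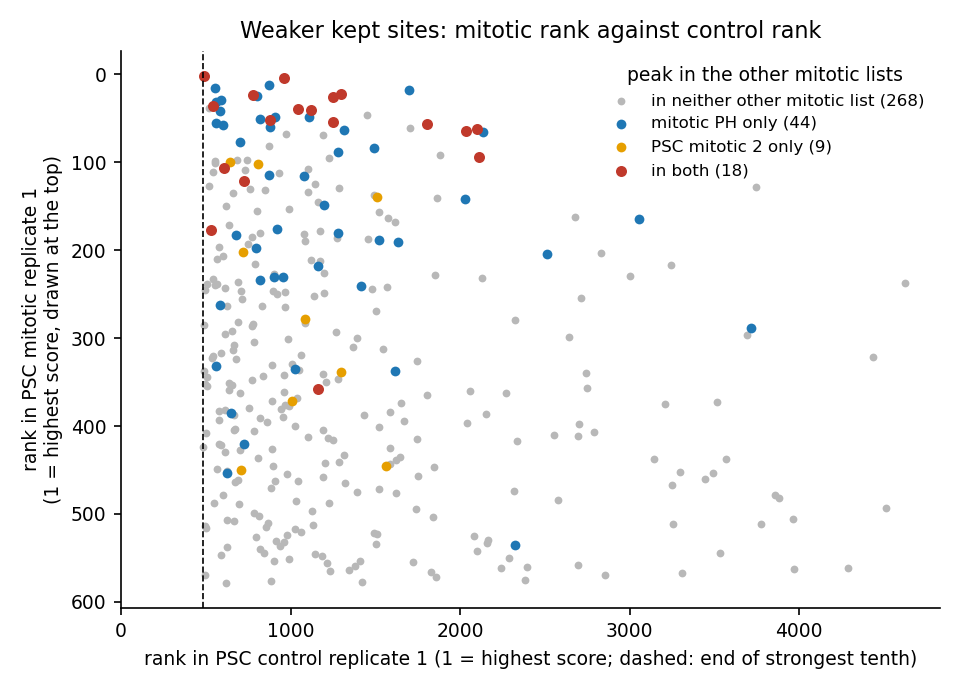
Each point is 1 of the 339 weaker kept sites, with its rank in PSC control replicate 1 on the horizontal axis and its rank in PSC mitotic replicate 1 on the vertical axis (rank 1 is the highest score, drawn at the top), and colours give the other mitotic lists in which the site has a peak. Sites fill the whole mitotic range from rank 2 to rank 578, and the 18 sites in both other mitotic lists lie mostly near the top.

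The peaks of mitotic replicate 1 were mostly narrower than those of control replicate 1 and lay within them. The mitotic peak was wholly inside the control peak at 316 of the 339 sites (93.2%). Median length was 1214 bp (1189 to 1239) in mitotic replicate 1 and 1783 bp (1720 to 1864) in control replicate 1. The mitotic peak covered a median of 68.5% of the control peak. In control replicate 2, however, the 295 sites with a peak had a median length of 1206 bp (1184 to 1235). The mitotic peaks were thus not narrower than those of the other control list. The centres lay a median of 92 bp apart (77 to 118.5), and within 100 bp of each other at 178 sites. No site rested on a marginal overlap. The smallest shared stretch was 812 bp, on X from 8982926 to 8984424, and the nearest weaker peaks that missed a mitotic peak missed it by 70, 114 and 195 bp. The 339 sites had 339 separate mitotic peaks, of which 1 also covered a strongest kept peak.

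The sites with the highest mitotic scores included some of middling rank in control cells. The highest was on 3R from 10521902 to 10523936. It ranked 491 in control replicate 1 with a score of 2018.03, and it ranked 2 in mitotic replicate 1 with a score of 1789.6. Its other scores were 313.52 in control replicate 2, 151.98 in mitotic replicate 2, 1650.2 in control PH and 265.37 in mitotic PH. This site therefore had a peak in each of the 6 lists. The next was on X from 5630948 to 5632854. It stood at rank 961 in control replicate 1 (score 1422.24) and at rank 4 in mitotic replicate 1 (score 1241.16). It also had a peak in the other 4 lists, with scores of 176.87 in control replicate 2, 79.14 in mitotic replicate 2, 2732 in control PH and 314.8 in mitotic PH. The site on X from 15032833 to 15034373 showed the widest gap between its control and mitotic ranks among the 10 highest. There the control rank was 1697 (score 939.51) and the mitotic rank 18 (score 839.12), with a mitotic PH peak at a score of 57.2 and none in mitotic replicate 2. The site on 2L from 14705642 to 14707186 had the highest score of the 27 sites with a peak in mitotic replicate 2, 214.84, with 790.27 in mitotic replicate 1 and 1171.28 in control replicate 1.

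The other 6 of the 10 highest were on 3L from 7520754 to 7522987 (mitotic score 901.78), on 2R from 18693369 to 18695310 (859.26), on X from 7826800 to 7828264 (754.62), on 3L from 7971088 to 7973004 (726.48), on X from 3999277 to 4000816 (718.85) and on X from 10660966 to 10663198 (658.19). All 10 had a mitotic PH peak, 5 had a peak in mitotic replicate 2, and 5 lay on X. At 1 of the 10, on X from 7826800 to 7828264, control replicate 2 had no peak although both mitotic replicates had one, with scores of 754.62 and 72.85.

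The rule used 1 control and 1 mitotic list, and the other 4 lists give readouts of the sites that played no part in choosing them. The short mitotic lists marked almost no weaker peak outside the kept sites. Mitotic replicate 2 had a peak at 27 of the 339 sites (7.96%, 5.31 to 11.4%) and at 0 of the 4008 weaker lost peaks, which allows a share of up to 0.0749% (3 counts of the total), against 1.1% of the whole control list. All 27 weaker control peaks that mitotic replicate 2 held were thus among the sites. The list of mitotic PH was made with a looser peak threshold than the others and from data of lower signal to noise, so its shares and those of mitotic replicate 2 are not on the same footing. Mitotic PH had a peak at 62 sites (18.3%, 14.3 to 22.8%) and at 6 weaker lost peaks (0.150%, 0.0550 to 0.326%), against 3.02% of the whole list. With the lost peaks weighted to the score deciles of the sites, these shares of lost peaks were 0% and 0.308%. The strongest kept peaks had higher shares than the sites in mitotic PH, at 34.1% (27.9 to 40.8%), while the intervals overlapped in mitotic replicate 2, at 11.4% (7.49 to 16.3%).

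Most sites nevertheless rested on 1 mitotic list alone. A peak in either of the other 2 mitotic lists was found at 71 sites, and 268 (79.1%) had one in neither. Support followed the mitotic score. Of the 85 sites with the highest mitotic scores, 43 had a mitotic PH peak (50.6%) and 20 a peak in mitotic replicate 2, while of the 85 with the lowest, 2 had a mitotic PH peak (2.35%) and 0 a peak in mitotic replicate 2, which allows up to 3.53%. Between them the shares in mitotic PH were 16.5% of 85 sites and 3.57% of 84. Where mitotic PH had a peak, its score and the mitotic PSC score had a Spearman's rho of 0.313 over 62 sites, and over the 75 such strongest kept peaks rho was 0.676. Over the 27 sites in both PSC mitotic lists rho was 0.036.

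**Figure D2:**
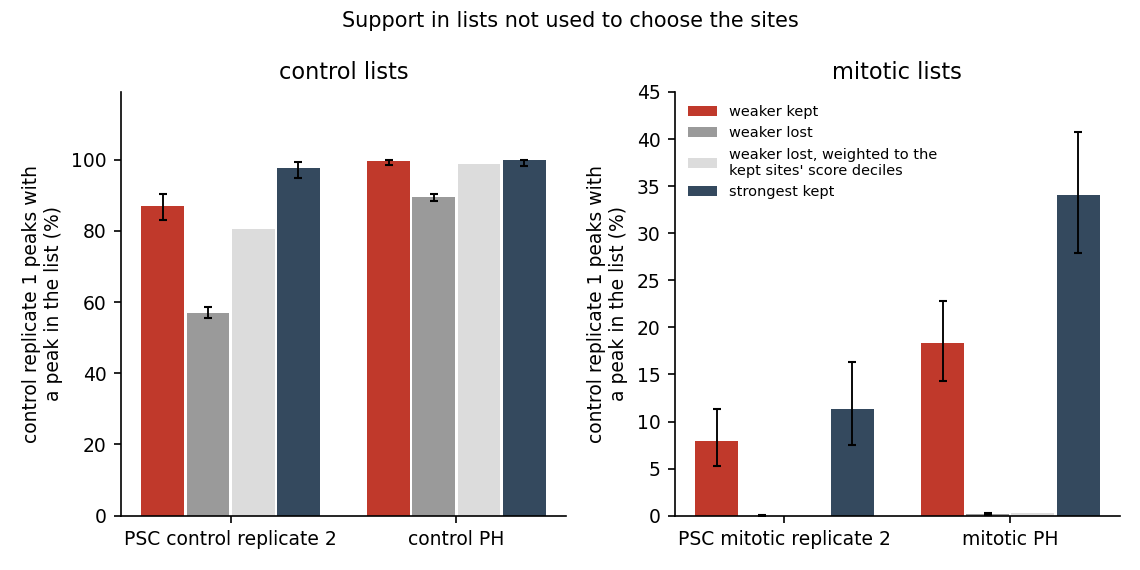
Bars give the percent of control replicate 1 peaks that overlap a peak of each list the rule did not use, for weaker kept sites, weaker lost peaks, weaker lost peaks weighted to the score deciles of the kept sites, and strongest kept peaks, with exact binomial 95% intervals where peaks were counted directly. In the mitotic lists the kept sites stand at 7.96% and 18.3% and the weaker lost peaks at 0% and 0.150%, while in control PH all bars are near the top.

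Both other mitotic lists held 18 of the sites (5.31%, 3.18 to 8.26%), against 0.828% of the whole control list and 0 of the weaker lost peaks. Their control ranks ran from 491 to 2114, so each came from deciles 2 to 5. In mitotic replicate 1 the lowest, median and highest scores of the 18 were 89.77, 454.41 and 1789.6. In mitotic replicate 2 the scores were 72.85, 91.4 and 214.84, and in mitotic PH 54.26, 77.4 and 314.8. Of the 18, 17 were in the upper 50% of the sites by mitotic score, 17 had a peak in control replicate 2, and 9 were among the strongest 10% of that list. The exception in mitotic score was on 3L from 12564911 to 12566372, with 89.77 in mitotic replicate 1, 88.77 in mitotic replicate 2 and 54.26 in mitotic PH. The site with the best rank in control replicate 2 also belonged to the 18. It lay on 2L from 19008036 to 19010142 and ranked 27 in control replicate 2 (score 562.99) but 531 in control replicate 1 (score 1965.8), with mitotic scores of 191.41, 124.77 and 61.47 in mitotic replicate 1, mitotic replicate 2 and mitotic PH. The lowest control rank of the 18 belonged to the site on 2L from 21396527 to 21398093, with a control score of 762.61 and mitotic scores of 307.58, 151.24 and 113.45 in the same order.

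Nearly all sites were found again in control PH, and fewer in the other control list of PSC itself. Control PH had a peak at 338 of the 339 (99.7%, 98.4 to 100%), against 91.2% of the whole control list, 89.4% of the weaker lost peaks and 98.7% of the lost peaks weighted to the deciles of the sites. Control replicate 2 had a peak at 295 sites (87.0%, 83.0 to 90.4%), against 62.9% of the whole list, 57.0% of the weaker lost peaks and 80.4% after weighting. Part of the distance between kept and lost peaks in control replicate 2 was thus matched by their control score, and the weighted value fell below the interval of the sites. Support was counted over the whole control replicate 1 peak, so a supporting peak need not touch the mitotic peak. On 2L from 419076 to 422201 the mitotic peak ended at 420513, and the highest-scoring control replicate 2 peak began at 420899. The only site without a control PH peak was on 2L from 11815921 to 11817241, chosen after its values were seen. It also lacked a peak in control replicate 2 and scored 213.75 in control replicate 1 and 100.93 in mitotic replicate 1.

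The sites called weaker in control replicate 1 were not all weaker in the other control lists. In control replicate 2, 47 of the 339 lay over a peak of the strongest 10% (13.9%, 10.4 to 18.0%), against 6.81% of the whole control list, 2.64% of the weaker lost peaks and 6.77% after weighting. In control PH, 36 did (10.6%, 7.55 to 14.4%), near the 10.2% of the whole list, against 2.10% of the weaker lost peaks and 7.25% after weighting. Decile 2, next to the limit of the rule, held 35 of the 47 and 35 of the 36. In that decile the share of kept sites was 23.2% (16.7 to 30.7%) in each list. Lost peaks of decile 2 had 10.5% (7.45 to 14.4%) in control replicate 2 and 13.6% (10.1 to 17.7%) in control PH, where the intervals overlapped. Either list placed 75 sites among its strongest 10%, both placed 8, and 264 were outside the strongest 10% of all 3 control lists. At like score in control replicate 1, kept sites stood higher than lost peaks in control replicate 2. In decile 2 the median rank there was 775.5 (616 to 926) at the 138 kept sites with a peak and 1081 (939 to 1193) at 299 lost ones. In decile 3 it was 1047.5 (865 to 1435) against 1401.5 (1215 to 1528), where the intervals overlapped. Within decile 2 the kept sites also had a somewhat higher score in control replicate 1 itself, with a median of 1728.79 (1667.67 to 1781.59) against 1651.6 (1624.58 to 1684.05) for lost peaks, a gap with overlapping intervals that the deciles did not remove and whose part in the rank difference was not tested. In control PH the median ranks of decile 2 were 693 (641 to 763) and 814.5 (752 to 868), and those of decile 3 were 1169 (1072 to 1268) and 1212.5 (1164 to 1258), with overlapping intervals in both.

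Over all deciles kept sites were longer than weaker lost peaks, with a median of 1783 bp (1720 to 1864) against 1629 bp (1614 to 1644), but at like control score they were shorter. In decile 2 the median was 2035 bp (1913 to 2153) at kept sites and 2422 bp (2247 to 2653) at lost peaks. It was 1783 bp (1657 to 1904) against 2057.5 bp (1954 to 2169) in decile 3, 1663 bp (1562 to 1769) against 1918 bp (1868 to 2017) in decile 4, and 1507 bp (1415 to 1705) against 1729 bp (1680 to 1773) in decile 5, where the intervals overlapped. Kept peaks had the lower median in 8 of the 9 weaker deciles, decile 7 with its 9 kept sites being the exception. These lengths come from a list that the rule used. Control PH, which it did not use, gave 2069 bp (1982 to 2182) against 2398 bp (2282 to 2496) in decile 2 of control replicate 1. In control replicate 2 the same sites of decile 2 were 1321.5 bp (1271 to 1392) against 1376 bp (1331 to 1454) long, with overlapping intervals. Ranked by that list's own scores, kept sites were not shorter throughout, with a median 131.5 bp lower in its decile 1 (1299 against 1430.5 bp) and 111 bp higher in its decile 5 (1249 against 1138 bp).

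**Figure D3:**
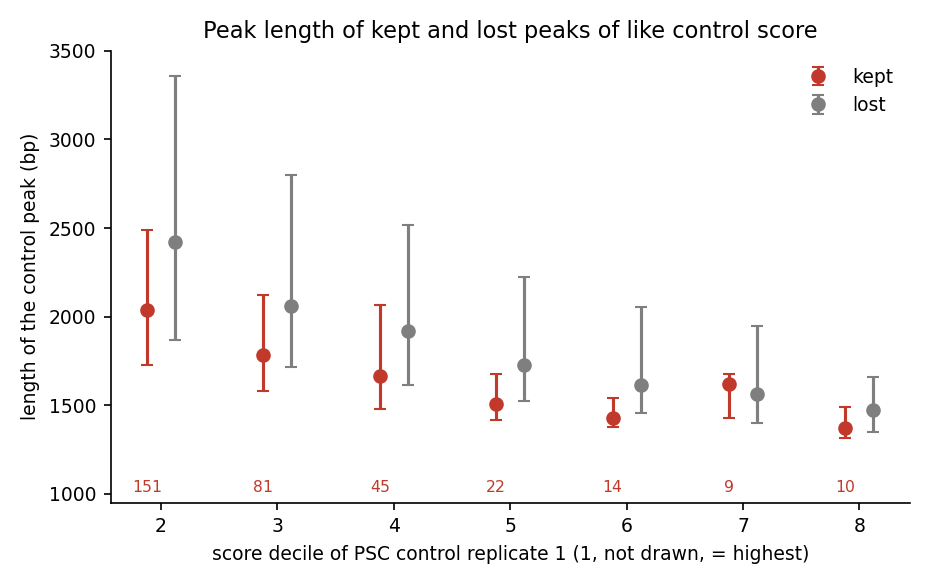
Points give the median length of the control replicate 1 peak and bars its quartiles, for weaker kept sites (red) and weaker lost peaks (grey) in score deciles 2 to 8, with the number of kept sites under each red point. Kept sites lie below lost peaks in decile 2 (2035 against 2422 bp) and in each decile drawn except decile 7.

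The longest site was a broad domain that 1 mitotic peak spanned in full. It lay on 3R from 25587132 to 25620659 and measured 33528 bp, and only 4 of the 339 sites were over 5 kb. It scored 2012.8 in control replicate 1 and 57.2 in mitotic replicate 1, where a single peak of 39716 bp ran from it into the strongest kept peak on 3R from 25622386 to 25633956. It had no peak in control replicate 2, mitotic replicate 2 or mitotic PH, and a score of 2559.36 in control PH. The shortest, on 2RHet from 822341 to 823439, was 1099 bp and had the lowest control score of all sites, 187.41, with 148.41 in mitotic replicate 1. The other of the 3 lowest, besides the site on 2L without a control PH peak, was on 2L from 15643356 to 15644730 with 201.85 in control replicate 1, 60.74 in mitotic replicate 1, 81.74 in control replicate 2 and 230 in control PH. Of the 17 sites in deciles 8 to 10, 3 had a peak in control replicate 2, and of the 40 in deciles 6 to 10, 3 had one in mitotic PH and 0 in mitotic replicate 2, which allows up to 7.5%.

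The unweighted share of weaker peaks that were kept had overlapping intervals on the large arms. It was 8.10% on 2L (64 of 790, 6.29 to 10.2%), 7.97% on 2R (70 of 878, 6.27 to 9.97%), 7.82% on 3L (69 of 882, 6.14 to 9.80%), 7.94% on 3R (84 of 1058, 6.38 to 9.74%) and 7.44% on X (50 of 672, 5.57 to 9.69%). Weaker peaks on X had a lower median control score (443.23) than those on the other 4 arms (585.8 to 644.55), and the share kept followed the score. Weighted to the decile make-up of all weaker peaks, the share was 11.2% on X and lay between 7.17 and 8.10% on the other 4 arms. No interval was computed for the weighted shares, and the one for X rests on 50 kept peaks. The part of X also depended on the replicate, since X held 14.7% of the 339 sites, 40.7% of the 27 sites found with mitotic replicate 2 in place of replicate 1, and 7.76% of the 361 found with control replicate 2 in place of replicate 1. On chromosome 4, 0 of 38 weaker peaks were kept, which allows a share of up to 7.89%. The heterochromatic scaffolds held 2 sites of 29 weaker peaks.

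Sites on X had other shares of support than those on the other large arms. Control replicate 2 had a peak at 26 of the 50 sites on X (52.0%, 37.4 to 66.3%) and at 268 of the 287 on 2L, 2R, 3L and 3R (93.4%, 89.9 to 96.0%). Of the 44 sites without a control replicate 2 peak, 24 were on X. The same held for lost peaks, of which 24.0% had a control replicate 2 peak on X and 63.1% on the 4 arms, and X made up 6.48% of the arm peaks of control replicate 2 against 14.5% in control replicate 1 and 14.3% in control PH. In the mitotic lists the order was the other way. Mitotic replicate 2 had a peak at 11 of the 50 sites on X (22%, 11.5 to 36%) and at 16 of the 287 (5.57%, 3.22 to 8.90%), and mitotic PH at 15 (30.0%, 17.9 to 44.6%) and 47 (16.4%, 12.3 to 21.2%), where the intervals overlapped. Both of these lists together held 10 of the 50 sites on X (20%, 10.0 to 33.7%) and 8 of the 287 (2.79%, 1.21 to 5.42%). Of the 60 peaks of mitotic replicate 2, 53 lay on arms, and X held 26.4% of these, against 11% of the arm peaks of mitotic replicate 1 and 14.8% of mitotic PH. The part of these list-wide shares in the support of the sites was not tested. The 50 sites on X had a lower median control score, 1041 (693 to 1333), than the 287 others, 1394 (1300 to 1461), while their median mitotic score was 141 (83.9 to 285) against 94.2 (83.6 to 101.7), with overlapping intervals. X held 12 of the 24 sites among the strongest 10% of mitotic replicate 1.

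**Figure D4:**
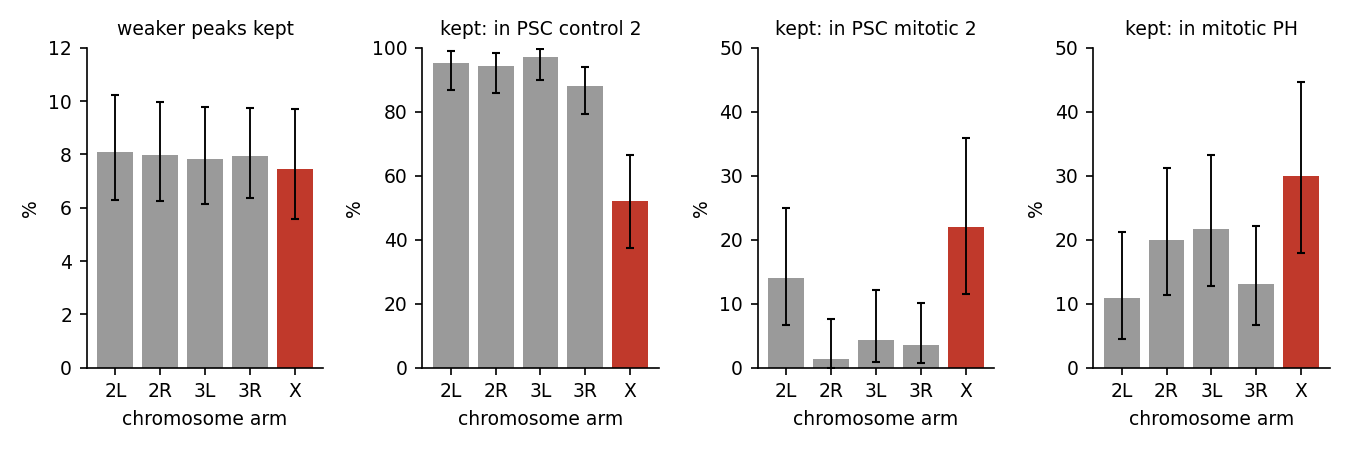
Bars give, for each large chromosome arm, the percent of weaker control replicate 1 peaks that were kept and the percent of kept sites with a peak in PSC control replicate 2, PSC mitotic replicate 2 and mitotic PH, with exact binomial 95% intervals. The unweighted shares kept run from 7.44% on X to 8.10% on 2L, while X (red) is lowest in control replicate 2 at 52.0% and highest in both mitotic lists, at 22% and 30.0%.

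A minority of weaker kept sites had a stronger PSC peak nearby that was lost, a smaller share than among weaker lost peaks. Within 20 kb, measured between nearest ends, 102 of the 339 sites (30.1%, 25.3 to 35.3%) had a lost peak of higher control replicate 1 score. The same was true of 55.5% of the whole control list, of 63.4% of the weaker lost peaks, and of 37.4% of these after weighting. The weighted value lay above the interval of the sites. All these values use the lists of the rule and are a description. A lost peak of any score lay within 20 kb of 286 sites (84.4%), near the 86.3% of the whole list. The nearest lost peak was a median of 5123 bp away from a site and 4409 bp from a weaker lost peak. The nearest other weaker kept site was a median of 95942 bp away from a site and 111292 bp from a weaker lost peak. Of the 85 sites with the lowest mitotic scores 38.8% (28.4 to 50%) had a stronger lost neighbour, and of the 85 highest 23.5% (15.0 to 34.0%), with overlapping intervals and with median control scores of 1211.33 and 1422.24.

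The 102 sites formed 147 pairs with 138 stronger lost neighbours. The highest ratio of neighbour to site, a ratio of scores within control replicate 1 and not of bound protein, had a median of 1.57 and ran from 1.01 to 6.38. Whether the neighbour was also stronger in the control lists that the rule did not use depended on the list. In control PH, 144 pairs had separate peaks and the neighbour scored higher in 115 (79.9%, 72.4 to 86.1%). In control replicate 2, 101 pairs had separate peaks and the neighbour scored higher in 45 (44.6%, 34.7 to 54.8%), lower or equal in 56. For the 5011 pairs of a weaker lost peak with a stronger lost neighbour, the share was 70.9% (68.8 to 73.0%) of 1835 pairs in control replicate 2 and 84.1% (82.9 to 85.2%) of 4029 in control PH. With the lost pairs weighted to the control score deciles of the pairs of the sites, these shares were 63.2% and 81.8%. The value for control replicate 2 still lay above the interval of the sites, which does not allow for pairs that share a site or a neighbour. All these shares leave out pairs in which only 1 of the 2 had a peak in the list. In control replicate 2 only the site had a peak in 14 of the 147 pairs, and only the neighbour in 19. Of the 5011 lost pairs, only the weaker lost peak had one in 476, and only the neighbour in 1678. A lost neighbour stronger in all 3 control lists was found at 36 of the 339 sites (10.6%, 7.55 to 14.4%), against 17.2% of the whole control list, 19.6% of the weaker lost peaks and 15.0% of these after weighting. Of the 36, 3 had a mitotic PH peak and 2 a peak in mitotic replicate 2. Among the 138 lost neighbours, 2 had a mitotic PH peak and 1 a peak in mitotic replicate 2, and among the 102 sites the numbers were 10 and 6.

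The widest ratio was at the site on 3L from 14063934 to 14065655, with a control score of 380.55 and a mitotic score of 66.64. The lost peak on 3L from 14042433 to 14047121 scored 2428.45, which was 6.38 times the score of the site. That neighbour scored 216.05 in control replicate 2, where the site had no peak. At the site on 2L from 14010956 to 14012520 the control score was 573 and the mitotic score 95.3, and the lost peak from 14020496 to 14025600 scored 3134.84 and ranked 23 of all control peaks. In control replicate 2 the same pair scored 99.45 and 112.05, at ranks 1754 and 1514 of that list, so the neighbour stood higher in both control replicates. The site on 2R from 5078579 to 5080410 scored 461.43 beside lost peaks of 1874.86 and 1421.31, and in control replicate 2 it scored 51.73 beside 168.37 and 190.9. Here the order was the same in both control replicates and in control PH, where the site scored 657.77 and these neighbours 1911.41 and 2376.35. Its mitotic score was 70.35.

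The site on 2L from 6068359 to 6069728 had 7 stronger lost neighbours, more than any other site. It scored 303.52 in control cells and 61.89 in mitotic cells, and the strongest of the 7 scored 1148.74. The last of the 5 was on 3R from 15846327 to 15847974, with a control score of 444.68, a mitotic score of 83.3 and a strongest lost neighbour of 1442.02. Neither of these sites had a peak in control replicate 2. None of the 5 sites had a peak in mitotic replicate 2 or mitotic PH, and their mitotic scores, from 61.89 to 95.3, lay below the median of the 339 sites.

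**Figure D5:**
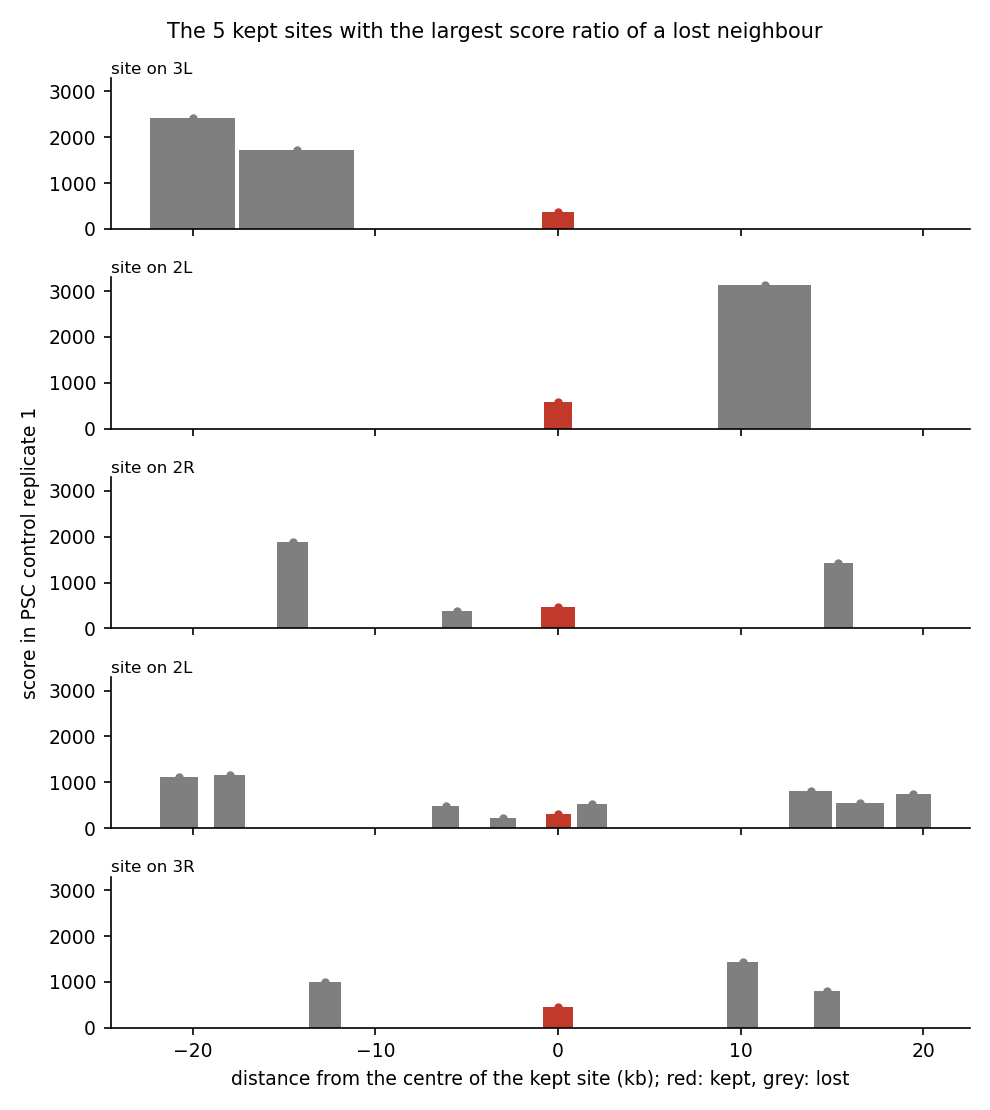
For the 5 weaker kept sites with the largest ratio of a lost neighbour's score to their own, bars give the score in PSC control replicate 1 (vertical axis) of each peak, drawn to its length, against its distance in kb from the centre of the kept site (red, kept; grey, lost). Every red bar stands below at least 1 grey bar, by 6.38 times at the top and 3.24 times at the bottom.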

How the data were processed

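Peak lists of 6 samples were used (PSC mitotic and control, 2 samples each; PH mitotic and control, 1 each). The authors aligned 36-bp reads to dm3, kept uniquely mapping reads and called peaks in each sample separately with MACS at a p-value cutoff of 1e-05. Lists were then limited by the authors to a false discovery rate of at most 5%, but mitotic PH was given a looser cutoff and, for its lower quality, was left out of their later steps. The submitters' processing notes name Bowtie 1.1.2 and MACS 1.0.1. The deposited score of each peak was used as given, and peak coordinates, as the authors deposited them, were converted to 1-based positions. Read numbers were not used here, so the depth of each sample was not taken into account, and the 6 input samples were not analysed here.

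Overlaps (at least 1 bp) and distances were computed in numpy 2.4.6, scipy 1.17.1 and pandas 2.3.3 under Python 3.11.15, and the code was tested on simulated data. For each of 30 list pairs, bedtools 2.31.1 gave an identical number of overlaps. Tied scores were ranked in file order. The mean share of lost peaks in each control score decile, weighted by the number of kept sites in it, gave the weighted values. No significance test was run, because peaks of a list are not replicates of a condition.

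The sites and lists were chosen with earlier results of these data known. Regions named were the 10 highest mitotic scores, sites in both other mitotic lists (of these 18, in part by their range), the 3 lowest control scores, the 5 largest ratios to a lost neighbour, 2 kept peaks on each side of the limit, the longest and shortest, and the best rank in control replicate 2. Alternatives were other overlaps, scores, limits and distances, each replicate left out, and ranking by control PH.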

Additional observations from a re-analysis of the deposited data

How the results depend on the processing

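No paired analysis was possible because no model over samples was fitted and the samples share only replicate numbers. Under settings other than a replicate left out, 99 values were recomputed. Of these, 71 stayed within 1.5 times the number of sites or within the interval of the reported value. The 71 include the setting of at least 50% overlap of the shorter peak, which changed no value. It could not remove a site, since at least 81.1% of each mitotic peak lay inside its control peak. With only mitotic peaks scoring at least 100, 162 sites (3.73% of weaker peaks) remained, of which 13.6% had a peak in mitotic replicate 2 and 33.3% in mitotic PH. With the upper 50% of the mitotic list these values were 143, 3.29%, 15.4% and 37.8%, and 92.3% had a control replicate 2 peak. Leaving out the strongest 20% gave 188 sites (4.87%), 42.6% with a stronger lost neighbour, and leaving out 5% kept 9.33% of the weaker peaks. A stronger lost neighbour was found at 10.6% of sites within 5 kb, 49.0% within 50 kb, and 18.0% where its score was at least 1.5 times higher. Weighting to the deciles moved the lost peaks from 57.0 to 80.4% in control replicate 2, from 89.4 to 98.7% in control PH and from 63.4 to 37.4% for stronger lost neighbours. In alternatives chosen after seeing the data, 93.4% of sites had a control replicate 2 peak with X left out, and weighting by control score moved the share of weaker peaks kept on X from 7.44 to 11.2% and the share of lost pairs with the neighbour stronger in control replicate 2 from 70.9 to 63.2%. Leaving out 1 replicate at a time, which for mitotic or control replicate 2 cannot change the choice of sites, gave between 27 and 361 sites (0.621 to 12.2% of weaker peaks), between 29.6 and 31.3% with a stronger lost neighbour, between 87.0 and 96.3% with a control replicate 2 peak, between 5.54 and 7.96% with a mitotic replicate 2 peak, and between 18.3 and 66.7% with a mitotic PH peak. The lowest number came without mitotic replicate 1, when the 60 peaks of mitotic replicate 2 took its place, and Spearman's rho of control and mitotic score was then -0.016 over 27 sites, the low end of a range up to 0.20. The depth of each sample is not in the lists, and its part in the length of the mitotic lists was not tested.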

Other observations

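Of the 4008 weaker lost peaks, 6 had a mitotic PH peak. On 2L from 4970572 to 4972507 the mitotic PH score was 125.29 and the PSC control replicate 1 score 1793.33. On 2R from 13343157 to 13347833 these were 52.6 and 1674.9, and on 2R from 15884576 to 15885689 they were 79.64 and 190.02. On 3L from 6896606 to 6898160 the mitotic PH score was 62.26 and the control score 975.75. Of the other 2, both on X, the peak from 7498105 to 7500441 scored 117.15 in mitotic PH and 516.97 in control replicate 1, and the peak from 7501589 to 7503034 scored 57.36 and 196.73. The nearest PSC mitotic replicate 1 peak was between 17551 and 544117 bp away.

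Applied to other pairs of lists, the same rule gave other numbers. Control replicate 2 with mitotic replicate 1 gave 361 weaker kept peaks of 2949 (12.2%, 11.1 to 13.5%), control replicate 2 with mitotic replicate 2 gave 20 of 2949 (0.678%, 0.415 to 1.05%), and control PH with mitotic PH gave 69 of 4167 (1.66%, 1.29 to 2.09%). Weaker peaks were 69.2%, 37.7% and 47.3% of all kept peaks in these 3 pairs, and 60.6% in the pair used here. Lists within these pairs are shared, so the numbers are not independent.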
